A study of Danio rerio with 9 samples.

Results

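The genes that write and erase DNA methylation were followed in Müller glia, the radial glial cells of the retina from which zebrafish regenerate neurons, during the first hours after a light lesion. They were taken by name from the authors' annotated gene table, as every gene whose symbol starts with dnmt together with tet1, tet2, tet3, apobec2a and apobec2b. The rule found 10 genes of the 33737 in the count table. These are 6 DNA methyltransferase genes (dnmt1, dnmt3aa, dnmt3ab, dnmt3ba, dnmt3bb.1 and dnmt3bb.3), 3 Tet genes and apobec2b. All 10 had enough counts to be tested, among 19875 tested genes. The name apobec2a was not found in the annotated table, and no value is given for it.

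Cells were sorted for green fluorescence after dissociation of the neural retina. The fish, aged 8 to 11 months, all carried Tg(gfap:EGFP)mi2002, in which the promoter of the glial gene gfap drives the reporter, so that cells are chosen by the activity of that promoter in all 3 groups. The controls were unlesioned (0 hours post lesion, hpl). The other groups were taken at 8 and 16 hpl, after 30 minutes of light over 120000 lux, a treatment that harms photoreceptors. Each group had 3 RNA sequencing libraries. No label says whether the libraries of a group came from separate fish or pools, so p-values measure only the spread between these libraries.

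DNA methylation places a methyl group on cytosine, mostly where a guanine follows. In vertebrates Dnmt1 copies the mark onto new strands after replication, enzymes of the Dnmt3 family place it on unmethylated DNA, and Tet enzymes oxidise it, after which thymine DNA glycosylase and base excision repair can restore plain cytosine. Apobec2 belongs to a family of cytidine deaminases, and Apobec2 proteins have been reported to be needed for retina regeneration in zebrafish.

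Total expected counts were 11714633 to 26608088 per library. The sorted fraction held RNA of other retinal cells in every library: 7 rod markers summed to 38730 to 117200 CPM (counts scaled to a common library size after TMM normalisation), beside 989.9 to 1973 CPM for 6 Müller glia markers. Not every listed marker matched the count table: 7 of 8 did for rods and 6 of 10 for Müller glia. For microglia and other leukocytes 7 of 10 matched, for cones 8 of 10 and for S phase 11 of 13. glula, glulb, slc1a3a and slc1a2b, listed for Müller glia, have no value here. In bulk RNA, fewer cells of a type and less RNA per cell cannot be told apart. On the first principal component, which held 27.6% of the variance, scores were 55.2 and 70.8 for 8 hpl replicates 1 and 3 and 106.2 for 16 hpl replicate 2. The remaining 6 libraries scored from -56.4 to -14.7. These 3 libraries that stand apart were also the lowest for the circadian clock repressor gene per1b, with 180.9 to 369.3 CPM against 663.9 to 1490 CPM in the remaining 6. For the members, the partner genes called in edgeR, and the thymine DNA glycosylase and Gadd45 genes, both values are given where a call or a value changes markedly without these 3. Other partner genes have no value from that fit here.

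In edgeR's quasi-likelihood test on all 9 libraries, the methyltransferase gene dnmt3bb.1 was the member that passed the threshold (adjusted p under 0.05). Its transcript was low before the lesion and at 8 hpl and was 4.18-fold higher at 16 hpl than at 0 hpl. No other member passed in that fit in any of the 3 comparisons, while DESeq2 also called tet2 at 8 hpl against 0 hpl and at 16 hpl against 8 hpl. Some edgeR fits of fewer libraries called further members, as given below. In zebrafish, dnmt3bb.1 encodes a Dnmt3b-related enzyme known from blood stem cells of the embryo.

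At 0 hpl, dnmt3bb.1 (ENSDARG00000036791) measured 3.32, 4.20 and 2.51 CPM in replicates 1, 2 and 3. At 8 hpl it measured 2.99, 2.69 and 3.13 CPM, and at 16 hpl 8.65, 18.5 and 14.97 CPM. All 3 libraries at 16 hpl lay above all 6 earlier ones, and the libraries of 0 and 8 hpl overlapped. The means were 3.35 ± 0.844, 2.94 ± 0.225 and 14.05 ± 4.998 CPM (SD, n = 3 each), from 199, 216 and 778 expected counts in all.

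The log2 fold change of dnmt3bb.1 at 16 hpl against 0 hpl was 2.06 ± 0.33 (SE; 95% interval 1.33 to 2.79), with an adjusted p of 0.0129 in edgeR's quasi-likelihood test, and the gene ranked 129 by p. Against 8 hpl the log2 fold change was 2.25 ± 0.33 (1.52 to 2.99), an adjusted p of 0.0467 in the same fit, and dnmt3bb.1 was 1 of 20 genes called there. At 8 hpl against 0 hpl it was -0.19 ± 0.32 (adjusted p = 0.847). The test of any difference over the 3 times gave an adjusted p of 0.00653. The call at 16 hpl against 0 hpl was lost when 0 hpl replicate 1 was left out (log2 fold change 2.05, adjusted p = 0.0822) or 0 hpl replicate 3 (1.89, adjusted p = 0.0717). The call against 8 hpl ended in several alternatives, which are listed in the closing section, among them the fit without the 3 libraries that stand apart (log2 fold change 2.13, adjusted p = 0.0968).

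These calls stand against a background over all tested genes. At 8 hpl against 0 hpl, 2.83% of tested genes were called and 0 of 10 members in edgeR, with 1 member at an unadjusted p under 0.05. DESeq2 called 1 member there and limma 0. At 16 hpl against 0 hpl, 2.09% of genes and 1 of 10 members were called. At 16 hpl against 8 hpl, 0.101% of genes and 1 of 10 members were called, with 4 members at an unadjusted p under 0.05. The 4 ranked 17 (dnmt3bb.1), 167 (tet2), 1463 (tet1) and 2445 (dnmt3ba) by p among 19875 tested genes, so many other genes reached that cutoff. The share of all tested genes at an unadjusted p under 0.05 was not counted, here or for the lists below. Over the 3 times together, 3.23% of genes were called. The median log2 fold change of the 10 members was 0.04, -0.02 and 0.17 in these 3 comparisons, beside 0.02, 0.03 and 0.01 for all tested genes.

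**Figure D1:**
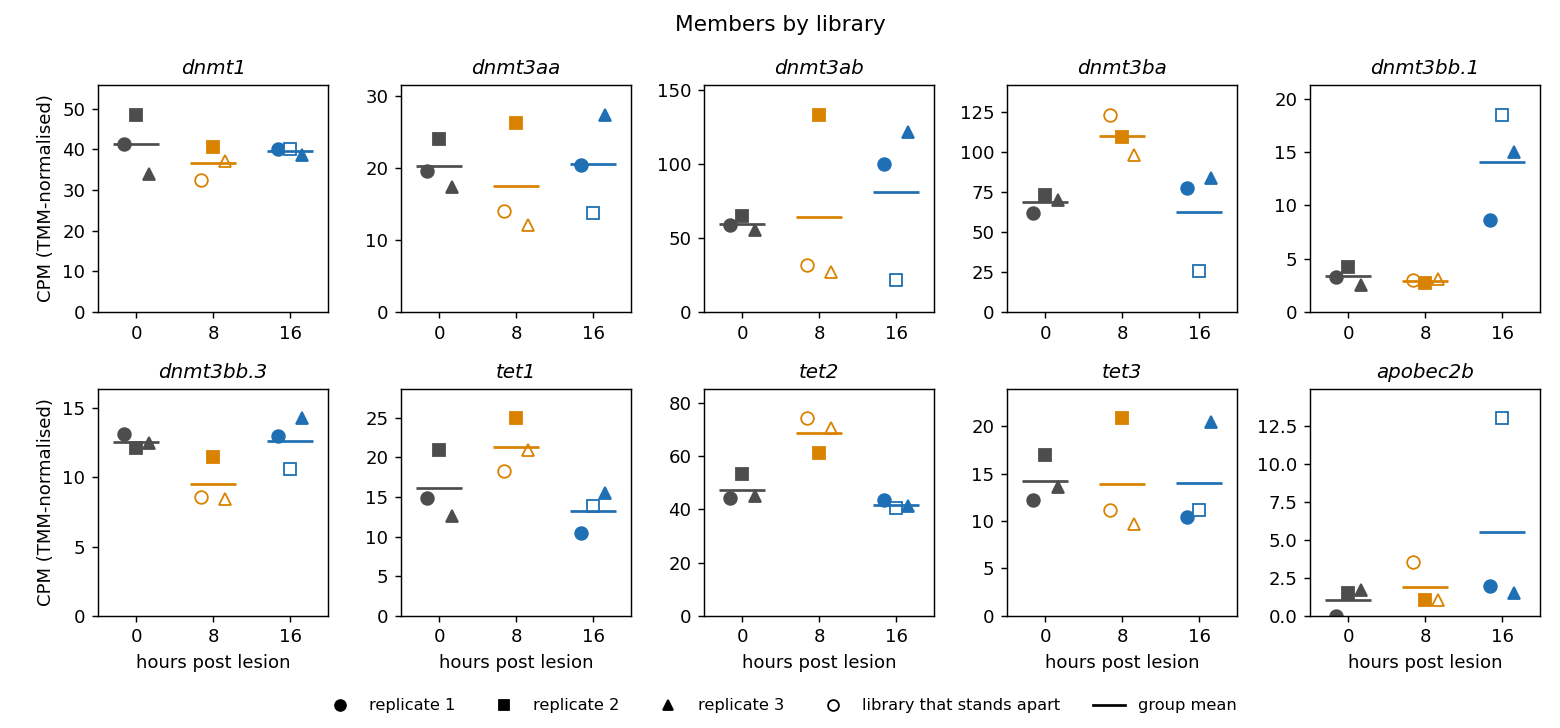
Each panel plots 1 gene, with CPM on the vertical axis and hours post lesion on the horizontal axis. Points are single libraries, open points are the 3 libraries that stand apart and bars are group means. The 3 points of dnmt3bb.1 at 16 hpl, from 8.65 to 18.5 CPM, lie above its 6 earlier points, while dnmt3ab spreads from 21.8 to 133.3 CPM across the libraries.

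Marker levels of other cell types also differed between libraries and groups. The library with the most dnmt3bb.1, 16 hpl replicate 2, had 6445 CPM of 5 bipolar cell markers in sum against 2087 to 2760 CPM in the others, of which 6036 CPM were cabp5a, a calcium-binding protein gene. Of the 5, prkca, a protein kinase gene, fell at 16 hpl against 0 hpl (log2 fold change -1.11, adjusted p = 0.0291 in edgeR). In 16 hpl replicates 1 and 3 the sums were 2660 and 2087 CPM, beside 8.65 and 14.97 CPM of dnmt3bb.1.

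Summed markers of microglia and other leukocytes, 7 genes, were at 4.98 to 6.15 CPM at 0 hpl, 5.99 to 8.71 CPM at 8 hpl and 6.53 to 13.9 CPM at 16 hpl. The listed markers mpeg1.1, csf1ra and spi1b matched no gene in the count table and are not in this sum. In a library up to 3 of the 7 genes were at 0 counts, and the microglial complement genes c1qa and c1qb had at most 10 counts in any library. The leukocyte genes coro1a and lcp1 were highest in 16 hpl replicate 2, at 5.30 and 5.49 CPM, and runx1 was at 0.216, 0.900 and 1.36 CPM at 16 hpl against 0 to 0.160 CPM at 0 hpl. runx1 had only 3 expected counts in all at 0 hpl and 41 at 16 hpl, and was not tested. The markers ptprc and marco had their highest means at 8 hpl. ptprc averaged 1.37, 2.18 and 1.45 CPM at 0, 8 and 16 hpl, and marco 0.146, 0.247 and 0.208 CPM. Of the 7 genes 3 were tested, and edgeR called 0 at 16 hpl against 0 hpl. Summed cone markers, 8 genes, were at 9603 to 12440 CPM at 0 hpl and 4281 to 8046 CPM at 16 hpl, where 2 of the 8 fell in edgeR (gnat2 and opn1sw2), beside 2.09% of all tested genes called. Summed rod markers, 7 genes, were at 69780, 68380 and 117200 CPM in 0 hpl replicates 1, 2 and 3. At 16 hpl they were at 64860, 38730 and 71860 CPM. At 16 hpl against 0 hpl 0 of the 7 had a positive log2 fold change (median -0.50), and edgeR called 0. The 6 Müller glia markers summed to 989.9 to 1654 CPM at 0 hpl and 1774 to 1973 CPM at 16 hpl, with 0 of 6 called in edgeR. All 6 reached an unadjusted p under 0.05 at 16 hpl against 0 hpl, where DESeq2 called 3 and limma 0. How many of all tested genes reached that cutoff was not counted. From 0 to 16 hpl, means rose for gfap (68.4 to 133 CPM), vim (33.2 to 66.4) and apoeb (407.9 to 1160). They fell for rlbp1a (393.1 to 231.3 CPM), cahz (427.8 to 285.7) and aqp1a.1 (64.8 to 22.9). The higher sum at 16 hpl rested mainly on apoeb, which had the highest mean of the 6 there. The part of these cells in the rise of dnmt3bb.1 was not tested.

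Measured per transcript length, dnmt3bb.1 had the lowest mean of the 10 members before the lesion, overlapping apobec2b, which was at 0 in 0 hpl replicate 1. The authors' FPKM (fragments scaled to transcript length and library size) gave it 1.14 ± 0.274 at 0 hpl, 0.996 ± 0.0829 at 8 hpl and 4.79 ± 1.70 at 16 hpl (SD, n = 3). Its share of the summed FPKM of the 6 methyltransferase genes was 2.18%, 2.43% and 1.71% in 0 hpl replicates 1, 2 and 3. At 8 hpl the share was 1.94%, 1.08% and 2.38%, and at 16 hpl 4.33%, 16.3% and 6.34%. The 16.3% came from a library in which the summed FPKM was only 38.9, the lowest of the 9. In that library dnmt3bb.1 had a higher share than dnmt3ab, dnmt3bb.3 and dnmt3ba, at 14.0%, 13.3% and 13.2%, and a lower one than dnmt1, at 26.3%, and dnmt3aa, at 16.9%.

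The genes most like dnmt3bb.1 over the 9 libraries, among 9177 tested genes with a name and a mean of at least 5 CPM, were cadm4 (Pearson r = 0.967 of log2 CPM), eif4g1a (0.965) and SKOR2 (0.953). The points share libraries and groups, so r is a description. cadm4, which encodes a cell adhesion molecule, averaged 26.4, 23.6 and 36.6 CPM at 0, 8 and 16 hpl. eif4g1a, which encodes a translation initiation factor, averaged 108.9, 115.2 and 168.4 CPM, and SKOR2, which encodes a transcriptional corepressor, 36.6, 37.2 and 67.4 CPM. None of the 3 was called at 16 hpl against 0 hpl (adjusted p of 0.213, 0.0835 and 0.0585 in edgeR). Their log2 fold changes there, 0.47, 0.63 and 0.88, were under that of dnmt3bb.1.

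The maintenance methyltransferase gene dnmt1 (ENSDARG00000030756) was the steadiest member. It measured 41.2, 48.5 and 33.8 CPM at 0 hpl, 32.5, 40.6 and 37.1 CPM at 8 hpl and 40.02, 40.02 and 38.6 CPM at 16 hpl. The highest library was 1.49-fold above the lowest, the smallest such ratio among the 9 members that were above 0 in all libraries, and the groups overlapped. The 95% interval of its log2 fold change was -0.56 to 0.22 at 8 hpl against 0 hpl and -0.45 to 0.33 at 16 hpl against 0 hpl, with adjusted p of 0.727 and 0.928. Summed S-phase markers, 11 genes of DNA replication, spanned 337.1 to 369.6 CPM at 0 hpl, 312.6 to 436.9 CPM at 8 hpl and 248.8 to 363.6 CPM at 16 hpl. Of these 11 genes, 1 was called at 8 hpl (rrm1, a ribonucleotide reductase subunit gene, log2 fold change 0.97, adjusted p = 0.0497) and 0 at 16 hpl in edgeR, where 1 had an unadjusted p under 0.05 and DESeq2 and limma called 0.

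The genes dnmt3aa and dnmt3ab, zebrafish counterparts of mammalian Dnmt3a, had libraries after the lesion that lay both above and below those of 0 hpl. dnmt3ab (ENSDARG00000015566) measured 58.4, 64.6 and 55.1 CPM at 0 hpl. It measured 31.7, 133.3 and 27.3 CPM at 8 hpl, and 99.7, 21.8 and 121.5 CPM at 16 hpl. Replicate 2 was the high library at 8 hpl and the low one at 16 hpl, and every group overlapped the others, with 6.12-fold between the highest and lowest library.

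With all libraries, the log2 fold change of dnmt3ab was 0.11 ± 0.66 at 8 hpl against 0 hpl and 0.45 ± 0.66 at 16 hpl against 0 hpl (adjusted p of 0.965 and 0.833). Without the 3 libraries that stand apart it was 1.16 and 0.90. These 3, all from after the lesion, held the lowest values of dnmt3ab, so leaving them out raises both log2 fold changes. The fit was chosen after seeing the data. In that fit 8 hpl is a single library, assumed to vary like the others. Without 8 hpl replicate 2 the value at 8 hpl turned to -1.01. The direction at 8 hpl therefore differed with the libraries used.

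dnmt3aa (ENSDARG00000005394) ranked the libraries much as dnmt3ab did. It measured 19.6, 24.1 and 17.3 CPM at 0 hpl, 14.1, 26.3 and 12.1 CPM at 8 hpl, and 20.5, 13.8 and 27.5 CPM at 16 hpl. The log2 CPM of both genes had a Pearson r of 0.928 over the 9 libraries, which share depth and the split described above. The log2 fold changes of dnmt3aa, -0.22 ± 0.33 at 8 hpl and 0.01 ± 0.33 at 16 hpl against 0 hpl, did not pass.

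dnmt3bb.3 (ENSDARG00000057863), another Dnmt3b-related gene, was also lowest in the 3 libraries that stand apart. It measured 13.1, 12.1 and 12.5 CPM at 0 hpl, 8.56, 11.46 and 8.42 CPM at 8 hpl and 12.98, 10.6 and 14.3 CPM at 16 hpl. The 8 hpl libraries all lay below those of 0 hpl, by a log2 fold change of -0.41 ± 0.21 that did not pass (adjusted p = 0.402). In all, 3 of 10 members had their 3 lowest values in these libraries, where 9.23% of all tested genes did.

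**Figure D2:**
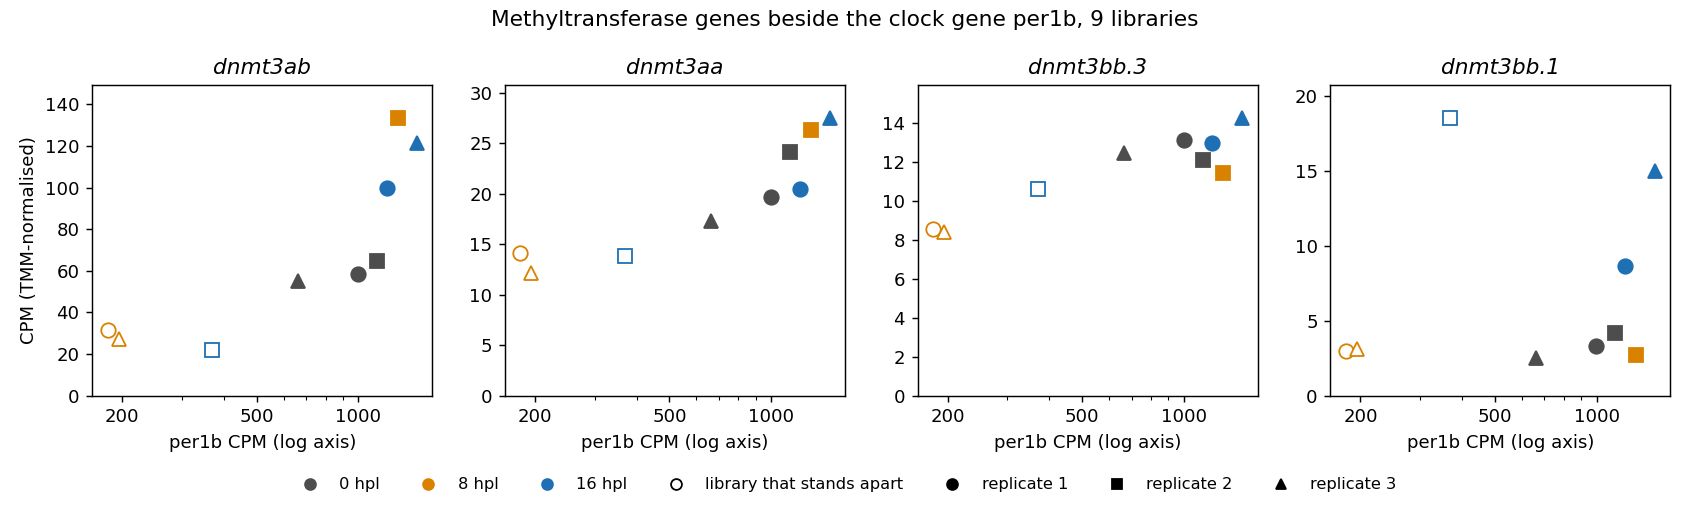
Each panel plots a methyltransferase gene in CPM against the clock gene per1b in CPM on a log axis, 1 point per library, with open points for the 3 libraries that stand apart. dnmt3ab, dnmt3aa and dnmt3bb.3 are lowest in the same 3 libraries as per1b, whereas dnmt3bb.1 has its highest value, 18.5 CPM, in one of them.

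Another clock gene, per2, a light-responsive gene in zebrafish, ran the other way within each group after the lesion. It measured 805.5, 278.2 and 831.2 CPM at 8 hpl, 81.7, 243.7 and 108.0 CPM at 16 hpl, and 11.6 to 42.6 CPM at 0 hpl. No label gives the clock time of collection. The part of the clock in the levels of dnmt3aa, dnmt3ab and dnmt3bb.3 was not tested.

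The means of dnmt3ba, tet2 and tet1 were higher at 8 hpl than at either other time. The share of all tested genes with this order of means was not counted. dnmt3ba (ENSDARG00000052402), a Dnmt3b-related gene, measured 62.1, 73.4 and 70.2 CPM at 0 hpl and 123.6, 109.4 and 98.1 CPM at 8 hpl. At 16 hpl it measured 77.3, 25.7 and 84.2 CPM. The 8 hpl libraries lay above those of both other groups, and 16 hpl replicate 2 lay far below every other library. The log2 fold change was 0.69 ± 0.36 at 8 hpl against 0 hpl (adjusted p = 0.391) and -0.82 ± 0.36 at 16 hpl against 8 hpl (0.348), which did not pass. At 8 hpl against 0 hpl it passed in the fit of those 6 libraries alone (0.70, adjusted p = 0.0360) and in the fit without 16 hpl replicate 2 (0.69, adjusted p = 0.0213).

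tet2 (ENSDARG00000076928), the Tet gene with the highest FPKM here, had the smallest p of the 10 members at 8 hpl against 0 hpl. It measured 44.03, 53.04 and 44.9 CPM at 0 hpl, 74.1, 61.1 and 70.3 CPM at 8 hpl and 43.4, 40.6 and 41.2 CPM at 16 hpl. The groups did not overlap in any of the 3 comparisons. The log2 fold change was 0.53 ± 0.15 at 8 hpl against 0 hpl (adjusted p = 0.106) and -0.71 ± 0.16 at 16 hpl against 8 hpl (0.109) in edgeR. Neither passed, and DESeq2 called both, with adjusted p of 0.0211 and 0.00195. The edgeR test over the 3 times gave an adjusted p of 0.0566.

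tet1 (ENSDARG00000075230) measured 14.9, 20.9 and 12.6 CPM at 0 hpl, 18.2, 24.9 and 20.9 CPM at 8 hpl and 10.4, 13.8 and 15.5 CPM at 16 hpl. Its libraries at 8 hpl lay above those at 16 hpl, by a log2 fold change of -0.69 ± 0.25 at 16 hpl against 8 hpl that did not pass (adjusted p = 0.265). Groups did not overlap for 3 of 10 members at 8 hpl against 0 hpl (dnmt3ba, dnmt3bb.3 and tet2), where 26.8% of tested genes did not overlap. The counts were 2 of 10 at 16 hpl against 0 hpl (dnmt3bb.1 and tet2), beside 21.1% of tested genes, and 4 of 10 at 16 hpl against 8 hpl (dnmt3ba, dnmt3bb.1, tet1 and tet2), beside 16.8%.

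**Figure D3:**
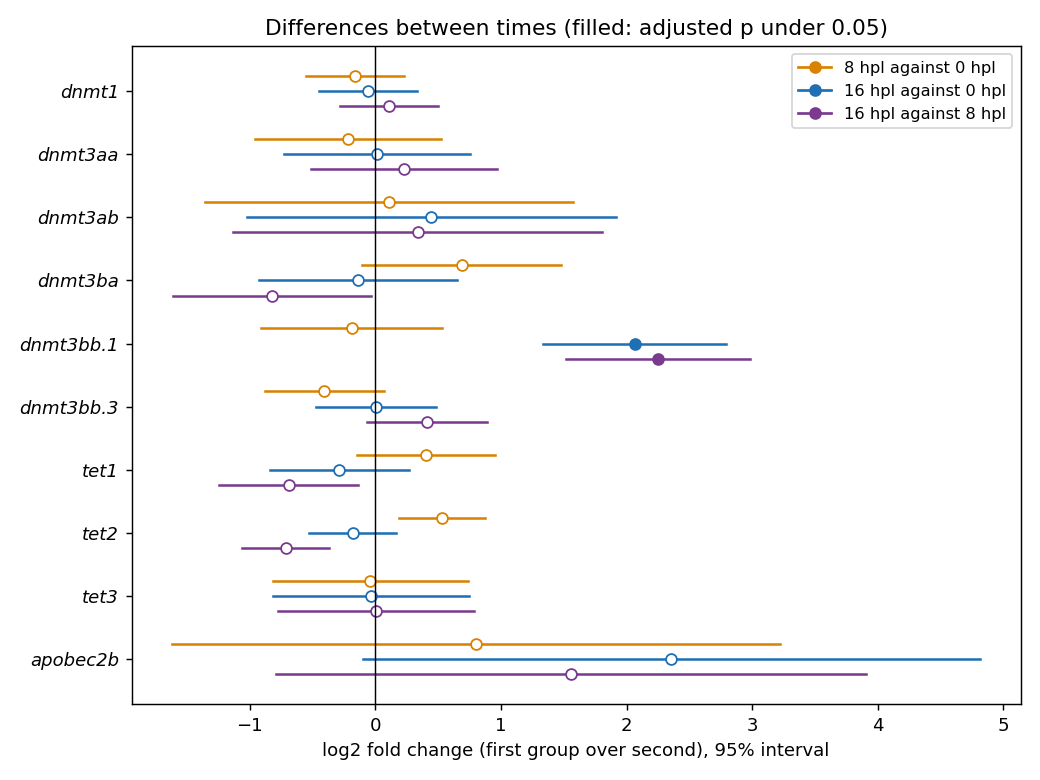
Log2 fold changes of the 10 members with 95% intervals, 1 row per gene and 1 line per comparison, with filled points where the adjusted p was under 0.05. Only the 2 points of dnmt3bb.1 that compare 16 hpl, at 2.06 and 2.25, are filled, and the intervals of dnmt3ab and apobec2b are the widest.

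tet3 (ENSDARG00000062646), the third Tet gene, showed no called difference. It measured 12.3, 16.98 and 13.6 CPM at 0 hpl, 11.2, 20.8 and 9.67 CPM at 8 hpl and 10.4, 11.1 and 20.4 CPM at 16 hpl. The groups overlapped throughout, and the 95% interval of its log2 fold change was -0.82 to 0.74 at 8 hpl and -0.82 to 0.74 at 16 hpl, both against 0 hpl.

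apobec2b (ENSDARG00000034604), the deaminase family member, was low, at 0 to 3.52 CPM in every library but 16 hpl replicate 2. It measured 0, 1.47 and 1.71 CPM at 0 hpl, 3.52, 1.04 and 1.03 CPM at 8 hpl and 1.95, 12.98 and 1.52 CPM at 16 hpl. The high mean at 16 hpl rested on replicate 2, with 273.8 of the 338 expected counts of that group. The log2 fold change at 16 hpl against 0 hpl was 2.36 ± 1.11 (95% interval -0.10 to 4.82, adjusted p = 0.362). The interval spans both no change and a large rise. Without 16 hpl replicate 2 the value was 0.70 (adjusted p = 0.807), and it was 0.71 (adjusted p = 0.756) with all 3 libraries that stand apart left out. The zebrafish gene listed as APOBEC2 in a gene name table, outside the rule, had 0 to 24 expected counts per library and was not tested.

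Per transcript length, the order of the members at 0 hpl was dnmt3ab (15.1 ± 1.00 FPKM), dnmt3ba (13.6 ± 1.17), dnmt1 (11.0 ± 1.39), dnmt3aa (8.95 ± 1.11), tet2 (7.08 ± 0.683), tet3 (5.31 ± 0.852), tet1 (4.28 ± 1.32), dnmt3bb.3 (4.004 ± 0.211), apobec2b (1.74 ± 1.53) and dnmt3bb.1 (1.14 ± 0.274), all SD with n = 3. In FPKM, the libraries of dnmt3ab and dnmt3ba overlapped, as did those of dnmt3ba and dnmt1, of dnmt1 and dnmt3aa, of tet3 and tet1, of tet1 and dnmt3bb.3, and of apobec2b and dnmt3bb.1. At 16 hpl dnmt3bb.1, at 4.79 FPKM, stood between tet1 at 3.44 and tet3 at 5.16. FPKM carries the error of the transcript lengths RSEM assigned, so this order compares estimates.

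**Figure D4:**
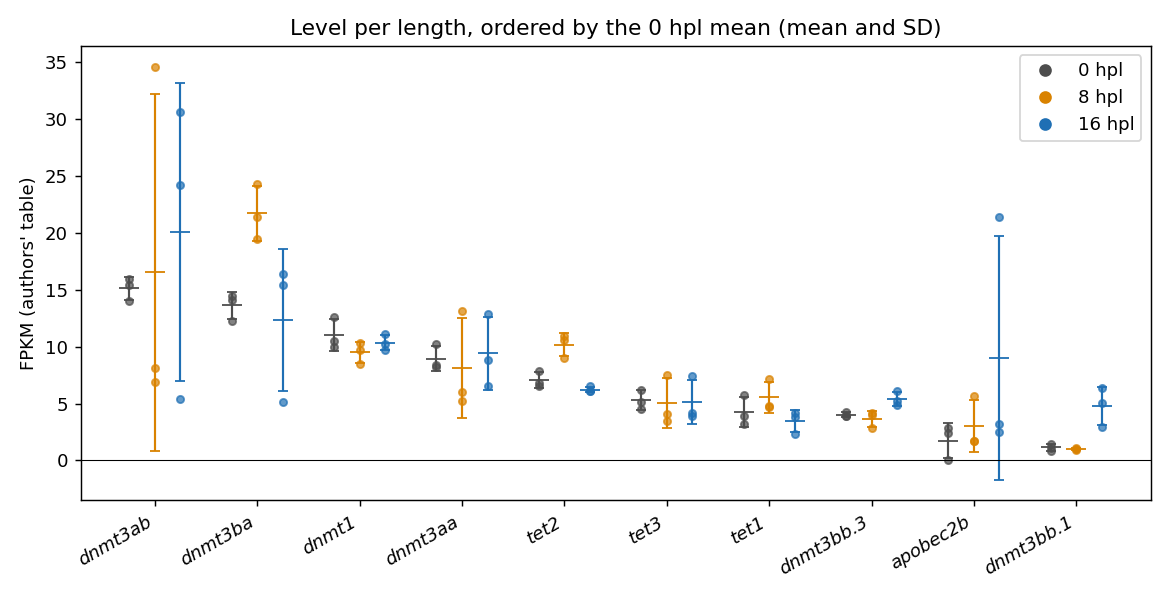
The authors' FPKM of the 10 members, ordered by the mean at 0 hpl, with 1 point per library, bars for the mean and whiskers for the SD in each group of 3. dnmt3bb.1 is lowest at 0 hpl, at 1.14, and stands at 4.79 at 16 hpl, and the whiskers of dnmt3ab at 8 and 16 hpl span most of the axis because its libraries differ.

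RSEM splits reads that fit several genes, and how far it did so differed between members. The expected counts of dnmt1, dnmt3ba, dnmt3bb.1, tet1 and tet3 were whole numbers (within 0.005) in 9 of 9 libraries. Those of dnmt3aa and dnmt3bb.3 were whole in 0 of 9. The counts of dnmt3bb.3 and of dnmt3bb.2, a neighbouring gene that the authors' annotated table does not name so, were whole in sum in 8 of 9 libraries, so reads were shared between this pair. dnmt3bb.2 had 5.51 to 23.8 expected counts per library, against 177.6 to 300.5 for dnmt3bb.3. This sharing leaves the level of dnmt3bb.3 uncertain, while dnmt3bb.1 received no fractional counts. dnmt3ab was whole in 5 libraries, and apobec2b and tet2 in 1 each.

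The authors' deposited table gave more calls. In it 5 of the 10 members had an adjusted p under 0.05 at 8 hpl, where 37.7% of its 15530 genes did, and 1 at 16 hpl, where 13.2% did. In the authors' deposited table the log2 fold changes at 8 hpl were -0.61 for dnmt3aa, -0.92 for dnmt3ab, 0.73 for dnmt3ba, -0.54 for dnmt3bb.3 and 0.60 for tet2, with adjusted p of 0.0181, 0.0175, 0.0050, 0.0092 and 0.00103. The value for dnmt3ab has the opposite sign to the edgeR value of 0.11. In the authors' deposited table the call at 16 hpl was dnmt3bb.1, with a log2 fold change of 1.51 and an adjusted p of 0.00372, in the direction of the edgeR fit.

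Genes that work with these enzymes were read from the same fit. Of 69 listed partner genes, 54 matched the count table and 51 were tested. The lists were chosen with earlier results of these data known, so the shares below are descriptions and do not test the lists. At 8 hpl against 0 hpl 6 of 51 rose and 0 fell (11.8% called, median log2 fold change 0.08, against 2.83% and 0.02 for all tested genes), with 16 at an unadjusted p under 0.05. At 16 hpl against 0 hpl 3 of 51 rose and 0 fell (5.88%, median 0.11, against 2.09% and 0.03). With the replicate block edgeR called 1 partner gene at 8 hpl and 1 at 16 hpl, each against 0 hpl. Without the 3 libraries that stand apart, the partner genes called at 16 hpl against 0 hpl went in both directions. At 16 hpl against 8 hpl edgeR called 0 of 51, with 12 at an unadjusted p under 0.05, while DESeq2 called 4 and limma 0. The share of all tested genes at that unadjusted cutoff was not counted. uhrf1, which recruits Dnmt1, and mbd4, a glycosylase gene, did not match a gene in the count table and have no value here.

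**Figure D5:**
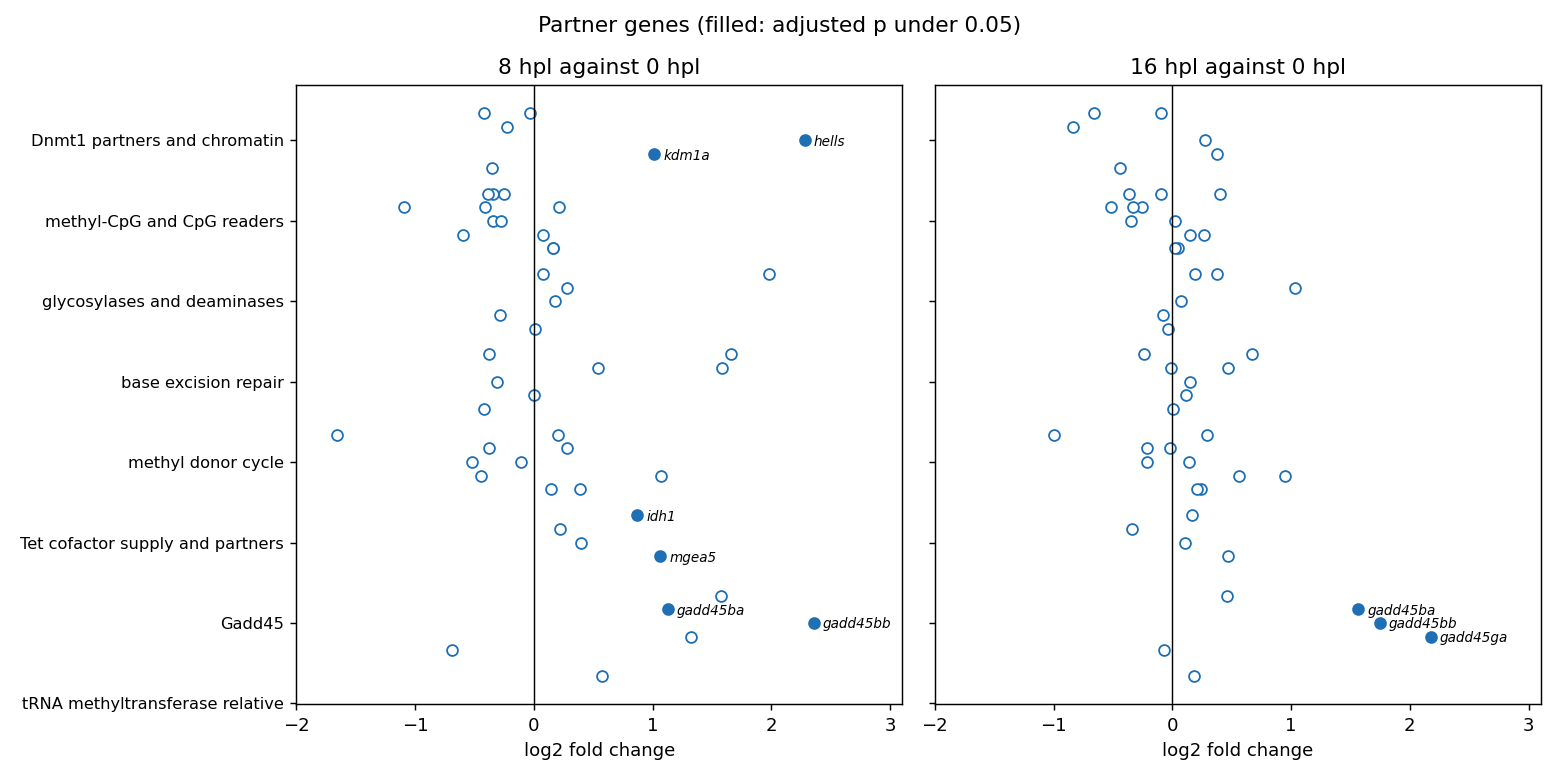
Log2 fold changes of the 51 tested partner genes by role, at 8 hpl (left) and 16 hpl (right) against 0 hpl, with 1 point per gene and filled, named points where the adjusted p was under 0.05. The filled points lie to the right of 0 in both panels, 6 at 8 hpl and 3 at 16 hpl, the latter all Gadd45 genes.

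Among the 6 partners of Dnmt1 and related chromatin genes, 2 rose at 8 hpl and 0 at 16 hpl, where 2.83% and 2.09% of all tested genes were called. Only these 2 had a positive log2 fold change at 8 hpl (median of the 6 -0.129). Means fell there from 0 hpl for setdb1a (69.9 to 54.7 CPM), cdca7a (5.90 to 4.41), cdca7b (2.19 to 1.88) and usp7 (130.7 to 127.8), none of them called. hells, a chromatin remodeller needed for DNA methylation in mammals, measured 11.68, 9.70 and 10.4 CPM at 0 hpl, 64.7, 17.6 and 72.1 CPM at 8 hpl and 13.1, 16.5 and 8.81 CPM at 16 hpl. Its log2 fold change at 8 hpl was 2.28 ± 0.46 (adjusted p = 0.0311), and the highest levels were in both 8 hpl libraries that stand apart. kdm1a, a histone demethylase gene whose mouse counterpart stabilises Dnmt1, rose by 1.01 ± 0.21 (adjusted p = 0.0365). It measured 254.4, 159.3 and 271.7 CPM at 8 hpl and 107.4 to 116.2 CPM at 0 hpl. Without the 3 libraries that stand apart, both calls ended, at log2 fold changes of 0.73 for hells and 0.49 for kdm1a.

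Of the 4 genes of Tet cofactor supply and Tet partners, 2 rose at 8 hpl, where 2.83% of all tested genes were called. All 4 had a positive log2 fold change there (median 0.635). idh1, whose enzyme makes the 2-oxoglutarate that Tet enzymes use, measured 23.7, 25.3 and 23.8 CPM at 0 hpl and 41.4, 47.7 and 44.1 CPM at 8 hpl (log2 fold change 0.87 ± 0.17, adjusted p = 0.0294). mgea5 (also named oga), the gene of the O-GlcNAc hydrolase, which reverses the modification that the Tet partner Ogt adds, measured 87.9 to 131.2 CPM at 0 hpl and 256.8, 176.6 and 233.2 CPM at 8 hpl (1.06 ± 0.21, adjusted p = 0.0303). The call of mgea5 ended without the 3 libraries that stand apart (0.73), and that of idh1 did not. Neither was called at 16 hpl.

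The Gadd45 genes, stress-induced genes whose mammalian products have been linked to active demethylation, included the partner genes called at 16 hpl. gadd45bb measured 17.6, 18.4 and 9.79 CPM at 0 hpl, 92.02, 45.1 and 97.1 CPM at 8 hpl and 50.96, 59.7 and 42.9 CPM at 16 hpl. It rose by a log2 fold change of 2.36 ± 0.33 at 8 hpl (adjusted p = 0.00686) and 1.75 ± 0.33 at 16 hpl (0.0264), and its call at 8 hpl held in every alternative run. The log2 fold change at 8 hpl was 1.56 without the 3 libraries that stand apart. Its call at 16 hpl ended with the replicate block (edgeR adjusted p = 0.0838) and without 16 hpl replicate 1 (0.0693). It also ended on leaving out 0 hpl replicate 1, 2 or 3 (0.104, 0.0845 and 0.109). gadd45ba measured 233.5 to 271.2 CPM at 0 hpl, 465.1 to 689.1 CPM at 8 hpl and 624.7 to 923.3 CPM at 16 hpl, a rise of 1.13 ± 0.24 (adjusted p = 0.0359) and 1.56 ± 0.24 (0.0107). Both comparisons share the 0 hpl libraries. The call of gadd45ba at 16 hpl ended on leaving out 0 hpl replicate 1, 2 or 3 (edgeR adjusted p of 0.0822, 0.0662 and 0.053).

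gadd45ga measured 44.2 to 53.6 CPM at 0 hpl, 109.4 to 133.0 CPM at 8 hpl, and 125.4, 444.2 and 106.3 CPM at 16 hpl. It was called at 16 hpl (2.18 ± 0.47, adjusted p = 0.0468) and not at 8 hpl (1.32 ± 0.46, adjusted p = 0.184), and 16 hpl against 8 hpl gave 0.86 ± 0.46 (adjusted p = 0.451). Without 16 hpl replicate 2 it passed at both times, at 1.22 at 16 hpl (adjusted p = 0.00499) and 1.32 at 8 hpl (0.00142), and without the 3 libraries that stand apart at 1.22 (0.00039) and 1.13 (0.00401). Its call at 16 hpl ended without a filter, with the 2 groups alone, in limma, with the replicate block, and on leaving out any 1 of the 0 hpl libraries or 8 hpl replicate 1 or 3. gadd45aa, at 1.57 ± 0.42 and 0.46 ± 0.42, and gadd45gb.1, at -0.69 ± 0.38 and -0.07 ± 0.37, did not pass at 8 or 16 hpl against 0 hpl in edgeR. At 8 hpl gadd45aa passed in DESeq2 (1.58, adjusted p = 0.00795) and with 8 hpl replicate 2 left out (1.95, adjusted p = 0.00361). It was 0.26 with all 3 libraries that stand apart left out. In that fit gadd45gb.1 at 16 hpl against 0 hpl went from -0.07 to -0.71.

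The partner groups nearest to base removal and repair had no calls against 0 hpl in edgeR, with 0 of 6 glycosylases and deaminases and 0 of 7 base excision repair genes. At 8 hpl their log2 fold changes were positive in 5 of 6 and 3 of 7. Of the thymine DNA glycosylase genes, tdg.1 measured 34.0 to 37.9 CPM at 0 hpl, 26.7 to 34.5 CPM at 8 hpl and 32.9 to 35.2 CPM at 16 hpl. tdg.2 measured 12.2 to 15.4, 12.9 to 15.1 and 13.02 to 13.9 CPM. Their log2 fold changes at 8 hpl were -0.28 ± 0.16 and 0.01, and neither passed. The 12 readers of methylated or plain CpG and the 10 tested genes of the methyl donor cycle likewise had 0 calls in edgeR against 0 hpl. At 8 hpl against 0 hpl, an unadjusted p under 0.05 was reached by 1 glycosylase or deaminase gene, 2 repair genes, 2 readers and 2 donor cycle genes, of which DESeq2 called 1, 2, 0 and 1 and limma 0, 0, 0 and 1. The unadjusted counts at 16 hpl against 0 hpl were 1, 0, 0 and 1, and both other tools called 0. Some genes uncalled in edgeR still had differing means (SD, n = 3), and those below are examples picked for that difference. Between 0 and 8 hpl, neil1 went from 8.07 ± 1.16 to 31.8 ± 16.5 CPM. xrcc1 went from 28.5 ± 5.92 to 85.3 ± 43.5 CPM and apex1 from 23.2 ± 3.07 to 73.1 ± 34.2 CPM. The donor cycle gene mat2ab went from 45.3 ± 6.02 to 14.4 ± 9.84 CPM, where 5 of 10 such genes had a positive log2 fold change. In edgeR's test over the 3 times, adjusted p was 0.0617, 0.0832, 0.221 and 0.0771 for these genes in turn.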

How the data were processed

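RNA was sequenced in 9 libraries, 3 each at 0, 8 and 16 hpl, grouped by their titles. Per the labels' protocols, RNA with an integrity number over 7.0 was made into stranded single-end libraries, each run in its own lane. The submitters' processing notes name, without role or order, RSEM 1.2.22, Bowtie2 2.2.6, limma 3.24.15, edgeR 3.10.2, Trim Galore 0.2.7, FastQC 0.10.1 and cutadapt 1.4.2, and the build Zv9. Expected counts were deposited by the authors as unnormalised RSEM values for each gene. FPKM are called normalized by the authors in the table's name alone. The authors' comparison table holds log2 fold changes and adjusted p-values under limma column names, per the file headers, and no source used here states its model. Gene symbols were those of that table (12581 genes) or, where it had none, of a gene name table (9741). No coordinates or sequences are printed.

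Expected counts were rounded and fitted with edgeR 4.0.16 in R 4.3.3 (filterByExpr by group, TMM, robust dispersions). A single quasi-likelihood fit held all 9 libraries, with 6 residual degrees of freedom. All p-values are two-sided, with a threshold of 0.05 after adjustment. In this fit they were adjusted over 19875 genes (Benjamini-Hochberg). SE were back-calculated from log2 fold change and F. Alternatives were DESeq2 1.42.0, RLE factors, no filter, only the 2 groups compared, limma 3.58.1 on log2 of FPKM + 0.1, a replicate block, and each library left out. Fits without a filter or with libraries left out were adjusted over their own gene sets, from 20370 to 28021 genes. DESeq2 was run with its default filtering. The fit without the 3 libraries that stand apart was chosen after seeing the data. Replicate numbers were not used to pair libraries: no label ties a number to a fish, batch or day, and same-numbered libraries correlated at -0.371 to 0.0853. Every member was named whatever its result, as were partner genes called in any comparison, uhrf1, hells, tdg.1, tdg.2, mbd4, the gadd45 genes and the 3 genes most like each called member. Members and gene lists were chosen with earlier results of these data known.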

Additional observations from a re-analysis of the deposited data

Results flagged for a closer look

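The log2 fold change of dnmt3bb.1 at 16 hpl against 8 hpl was 2.25 (adjusted p = 0.0467 in edgeR). It stands here because the differences from 0 hpl at both times themselves differed by a direct test. That test is this comparison, since the 0 hpl libraries cancel in it. No unlesioned group was taken at 8 or 16 hours, so the lesion and the time of collection cannot be told apart. All 3 libraries at 16 hpl were above all 3 at 8 hpl. The adjusted p ranged from 2.33e-07 to 0.292 over the alternatives run.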

How the results depend on the processing

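Over the 10 members and 3 comparisons, 423 of 480 recomputed values kept their direction and their side of the threshold, 13 fell short of it, 7 newly passed it and 37 changed sign, the latter in 15 of 30 results, none of them called. The rise of dnmt3bb.1 at 16 hpl against 0 hpl kept its call in 14 of 16 alternatives (log2 fold change 1.81 to 2.32, adjusted p 8.31e-07 to 0.0822). Against 8 hpl it kept its call in 5 of 16 (2.00 to 2.51, adjusted p 2.33e-07 to 0.292). That call ended in the fit of the 2 groups alone (adjusted p = 0.217), in limma on FPKM (0.0977), with the replicate block (0.181), without the 3 libraries that stand apart (0.0968) and on leaving out any 1 library other than 8 hpl replicate 2 and 16 hpl replicate 2. The cause was not tested. The test over the 3 times was run in the fit of all 9 libraries only.

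Counts of calls are given in the order 8 hpl against 0 hpl, 16 hpl against 0 hpl and 16 hpl against 8 hpl, where edgeR gave 563, 415 and 20 genes, 0, 1 and 1 members and 6, 3 and 0 partner genes. DESeq2 called 1505, 1272 and 766 genes, 1, 1 and 2 members and 11, 3 and 4 partner genes. The fit of the 2 groups alone called 1006, 322 and 0 genes and 1, 1 and 0 members. Without a filter 44 genes were called at 16 hpl against 8 hpl, and limma on FPKM called 0 members there. Without the 3 libraries that stand apart, where 8 hpl is 1 library assumed to vary like the others, 1035, 1586 and 98 genes, 1, 2 and 0 members and 5, 6 and 0 partner genes were called. With the replicate block, 147, 168 and 0 genes, 0, 1 and 0 members and 1, 1 and 0 partner genes were called. Libraries with the same number did not deviate together. Leaving out 1 library at a time gave 95 to 1320, 103 to 661 and 0 to 677 genes, 0 to 1, 0 to 1 and 0 to 2 members and 1 to 10, 0 to 4 and 0 to 6 partner genes. The lowest gene counts against 0 hpl came without 0 hpl replicate 1, and the highest without 16 hpl replicate 2 (8 hpl) or 8 hpl replicate 2 (16 hpl). The fit without 8 hpl replicate 2 called 2 members at 16 hpl against 8 hpl, 1 of them up.

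Sign changes were all in log2 fold changes that had not passed with all 9 libraries. Without the 3 libraries that stand apart dnmt3aa stood at 0.37 at 8 hpl against 0 hpl and -0.13 at 16 hpl against 8 hpl, dnmt3ab at -0.26 and dnmt1 at -0.036 at 16 hpl against 8 hpl, apobec2b at -0.037 at 8 hpl against 0 hpl and dnmt3ba at 0.24 at 16 hpl against 0 hpl. In the same fit tet3 stood at 0.54 at 8 hpl and 0.098 at 16 hpl against 0 hpl, and at -0.44 at 16 hpl against 8 hpl. dnmt3ab at 8 hpl against 0 hpl was -0.27 in limma on FPKM and -0.021 with the replicate block. tdg.2 (tgd.2 in the authors' table) was -0.0019 without a filter at 8 hpl and 0.25 in limma on FPKM at 16 hpl, both against 0 hpl. Leaving out 1 library at a time, the values at 8 hpl against 0 hpl ran from -1.01 to 0.47 for dnmt3ab, -0.036 to 1.29 for apobec2b, -0.36 to 0.027 for dnmt3bb.1, -0.45 to 0.16 for tet3 and -0.064 to 0.099 for tdg.2. At 16 hpl against 0 hpl they ran from -0.25 to 0.23 for dnmt3aa, -0.19 to 0.083 for dnmt1, -0.41 to 0.23 for dnmt3ba, -0.088 to 0.11 for dnmt3bb.3, -0.41 to 0.14 for tet3, -0.72 to 0.18 for gadd45gb.1 and -0.10 to 0.054 for tdg.2. At 16 hpl against 8 hpl they ran from -0.042 to 0.64 for dnmt3aa, -0.085 to 1.45 for dnmt3ab, -0.10 to 2.39 for apobec2b and -0.38 to 0.41 for tet3. Calls of partner genes at 8 hpl, other than gadd45bb, ended on leaving out most single libraries. apobec2b had 0 to 273.8 expected counts per library, which limits its precision.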
